A study of Mus musculus with 4 samples.

Results

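Histone methylation enzymes place methyl groups on lysines and arginines of histone tails, or remove them. The 48 genes described here are the protein-coding rows of a polysome RNA table of mouse ADSCs whose symbols begin with Kmt, Kdm, Setd or Prmt and a number, together with Ezh1, Ezh2, Ehmt1, Ehmt2, the Suv39h pair, Nsd1, Nsd2, Nsd3 and Dot1l, out of 18200 genes. The genes Kdm5c, Kdm5d and Kdm6a were set aside by the rule that chose them. Polysome RNA is messenger RNA recovered with several ribosomes on it. Total RNA was not analysed here, so the amount of a messenger RNA and its loading with ribosomes cannot be told apart, nor can fewer cells of a type and less RNA per cell. Sequencing covered 4 libraries, all labelled wild type by genotype. The label of 2 libraries is scrambled and that of the other 2 is knockdown of IFIT1 with an shRNA, and replicate 1 of each is in batch 1 and replicate 2 in batch 2. Strain, age, the vector and whether the replicates were separate cultures are not stated in the labels, so the p-values reflect only how far these libraries differ, which may be technical.

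Lysine methylation is read by other proteins as a signal for active or silent chromatin, depending on the residue. Methylation of H3K4, H3K36 and H3K79 is found on transcribed genes, that of H3K9, H3K27 and H4K20 mostly on silent chromatin. SET-domain enzymes, and Dot1l, which lacks that domain, write these marks with S-adenosylmethionine as methyl donor. The flavin enzymes Kdm1a and Kdm1b and the oxygen-dependent JmjC enzymes erase them, and the PRMT enzymes methylate arginines of histones and of many other proteins. In mesenchymal cells, enzymes such as Ezh2 are known for holding lineage genes silent.

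The libraries held 23777416 to 29023339 recovered fragments. Ifit1, the gene named as the target, had 1.93 and 1.91 FPKM (fragments per kilobase of gene, scaled to library size) under the scrambled label and 13.9 and 14.8 under the knockdown label, opposite to the labels (7.47-fold higher, log2 2.39, limma adjusted p = 1.6e-04). Every direction below therefore compares libraries by label, knockdown relative to scrambled, and says nothing of whether Ifit1 was lowered. The Y-linked genes Ddx3y, Eif2s3y and Uty together summed to 0.00981 and 0.00262 FPKM under the scrambled label and to 0.853 and 1.17 under the knockdown label. The X-linked noncoding RNA Xist was at 0.0520 and 0.137 against 0.106 and 0.0509 FPKM. Whether the cells of the groups differed in sex or donor was not tested, and such a difference cannot be told apart from the label. Of 11 listed mesenchymal stromal markers, 7 were tested and all 7 rose, beside 27.4% of all tested genes. Ly6a stood at 22.1 to 43.9 FPKM over the 4 libraries and Cd34 at 2.76 to 3.77. Thy1 rose 8.29-fold, from 3.71 and 3.68 FPKM under the scrambled label to 31.0 and 30.3 under the knockdown label, and Eng rose 2.52-fold. The listed markers Pdgfra and Nt5e were near 0, at no more than 0.121 and 0.0347 FPKM, and the keratin Krt19 was at 91.4 to 166 FPKM.

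Most of the tested enzymes were lower in the libraries labelled knockdown. A mean FPKM of at least 1 was required for testing, which 34 of the 48 members reached. Of these, 24 fell, 4 rose and 6 did not pass (limma on log2(FPKM + 1), adjusted p below 0.05). Over all 8750 genes tested, 41.2% fell and 27.4% rose. The median log2 change of the tested members was -0.46, with -0.47 in batch 1 and -0.44 in batch 2, against -0.02 for all tested genes (-0.13 in batch 1 and -0.22 in batch 2). Among the tested members the deepest fall was in the lysine demethylase Kdm1a and the steepest rise in the H4K20 methyltransferase Kmt5c. In all, 28 of 34 passed in either direction, against 68.7% of all tested genes, and 30 of 34 had groups that did not overlap, against 74.5%. A log2 change of -1 or below was reached by 3 members (Kdm1a, Setd7 and Kdm2a) and by 4.06% of all tested genes. The members were longer than most genes, and with the trend of each library with gene length taken out, 20 fell and 7 rose, against 36.6% and 29.5% of the 8691 genes with a length. With standard errors held to at least the counting error, 24 fell and 4 rose, against 39.8% and 25.7%. Because 1 is added to each FPKM before the logarithm, changes of low genes come out too small.

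**Figure D1:**
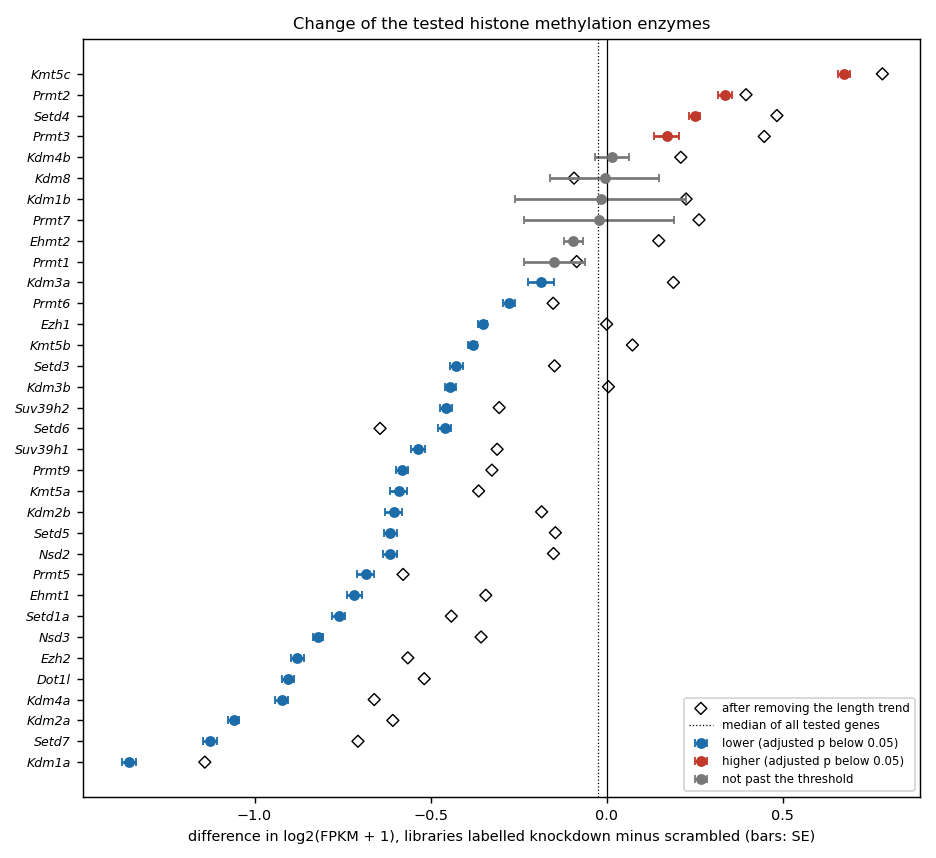
Difference in log2(FPKM + 1) between the libraries labelled knockdown and scrambled for the 34 tested members, ordered by size (filled points, bars are SE from limma, 2 libraries a group). Blue members fell, red rose and grey did not pass, open diamonds give the same difference with the length trend removed, and the dotted line is the median of all tested genes; 24 points lie to the left in blue, from Kdm1a at -1.36 to Kdm3a at -0.19.

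The start regions of the 4 members that rose and of the tested member that fell most are shown because these lie at the ends of the range of tested changes. Each stretch is the 250 bases before the annotated start, 5′ to 3′, from RefSeq on GRCm38.p6, and capitals mark a CCAAT box (CCAAT or its reverse complement ATTGG) or an E2F-type motif (GCGGGAAA, both strands searched). Kmt5c is at chr7:4739877-4740126 on the plus strand, Prmt2 at chr10:76237866-76238115 on the minus strand, Setd4 at chr16:93603816-93604065 on the minus strand, Prmt3 at chr7:49778108-49778357 on the plus strand and Kdm1a at chr4:136602724-136602973 on the minus strand.
Kmt5c: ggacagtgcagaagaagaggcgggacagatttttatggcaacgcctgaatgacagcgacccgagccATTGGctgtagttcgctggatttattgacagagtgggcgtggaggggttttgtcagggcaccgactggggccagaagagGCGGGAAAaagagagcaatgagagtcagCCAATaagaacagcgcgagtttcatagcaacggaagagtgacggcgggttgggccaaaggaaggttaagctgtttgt
Prmt2: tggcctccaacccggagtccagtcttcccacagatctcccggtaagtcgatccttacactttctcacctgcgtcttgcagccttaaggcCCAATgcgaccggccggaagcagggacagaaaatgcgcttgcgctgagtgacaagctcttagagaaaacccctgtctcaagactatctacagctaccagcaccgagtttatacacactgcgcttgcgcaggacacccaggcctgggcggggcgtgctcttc
Setd4: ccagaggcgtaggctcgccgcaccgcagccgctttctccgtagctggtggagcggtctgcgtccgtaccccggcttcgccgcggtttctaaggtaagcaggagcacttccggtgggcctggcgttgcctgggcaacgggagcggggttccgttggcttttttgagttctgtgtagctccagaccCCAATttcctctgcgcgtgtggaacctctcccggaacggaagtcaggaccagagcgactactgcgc
Prmt3: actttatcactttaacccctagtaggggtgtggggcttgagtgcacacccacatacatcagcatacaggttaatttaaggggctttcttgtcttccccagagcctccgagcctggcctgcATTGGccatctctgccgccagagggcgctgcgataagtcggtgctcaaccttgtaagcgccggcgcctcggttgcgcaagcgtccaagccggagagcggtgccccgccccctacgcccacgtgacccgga
Kdm1a: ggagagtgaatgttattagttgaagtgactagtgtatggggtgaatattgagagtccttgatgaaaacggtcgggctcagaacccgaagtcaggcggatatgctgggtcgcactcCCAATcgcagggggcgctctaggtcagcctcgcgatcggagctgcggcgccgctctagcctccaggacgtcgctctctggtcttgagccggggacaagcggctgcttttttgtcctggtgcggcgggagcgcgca
All 5 stretches hold a CCAAT box, Kmt5c on each strand once, and Kmt5c alone of these holds the E2F-type motif. A CCAAT box lies in 37.4% of all 32851 mouse start regions of 300 bases and in 20 of the 49 start regions found for 37 of the 48 members. The E2F-type motif is in 1.07% of all regions and in 1 member region, and the interferon-stimulated response element and the NRF1 motif are in 3.44% and 0.971% of all and in 0 of the 49. Member regions were richer in the GC box GGGCGG, 34 of 49 against 35.7% of all, and poorer in TATAAA, 1 of 49 against 13.6% (all motifs were searched on both strands, and the GC box and the E2F-type motif can share letters). Their median content of G and C was 62.7% against 52.7%. A match is a description of letters and shows no binding.

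The H4K20 enzymes went in different directions. Kmt5c, which trimethylates H4K20 in heterochromatin, was at 4.58 and 4.52 FPKM under the scrambled label and 7.83 and 7.88 under the knockdown label. Its mean rose 1.73-fold, from 4.55 ± 0.0422 to 7.86 ± 0.0398 FPKM (SD, 2 libraries a group; log2 0.67, SE 0.016, limma adjusted p = 1.6e-04), on 151 and 181 against 316 and 292 fragments. Kmt5b, the other enzyme of di- and trimethylation, went from 1.36 and 1.34 FPKM to 0.800 and 0.813. It fell to 0.596 of its level, a call that was lost with the length trend removed (log2 0.07, adjusted p = 0.064). Kmt5a, which adds the first methyl group and is tied to mitosis, fell from 24.9 and 25.3 to 16.1 and 16.6 FPKM. The ratio of Kmt5c to Kmt5b, which does not depend on a library's scaling factor, was 3.36 and 3.37 under the scrambled label and 9.78 and 9.69 under the knockdown label. The pair differ in summed exon length, 4001 bases for Kmt5c and 14752 for Kmt5b, and the part of length in this ratio was not tested. Fragments and FPKM of Kmt5c fit a gene shorter than 4001 bases, unless its true fragments are a multiple of those given. With 2 libraries a group, the exact permutation test of such a ratio cannot go below 0.333 (two-sided), its value here and for the other ratios given.

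Among the H3K9 enzymes, 3 of 4 fell, beside 41.2% of all tested genes. Suv39h1, a trimethylase of pericentric heterochromatin, was at 25.5 and 25.1 FPKM under the scrambled label and at 17.0 and 17.2 under the knockdown label, with no overlap (log2 -0.54, adjusted p = 2.3e-04). Its close relative Suv39h2 fell from 2.87 and 2.89 to 1.80 and 1.85 FPKM. The Suv39h1 to Suv39h2 ratio was 8.89 and 8.68 against 9.44 and 9.30. Ehmt1, known as GLP, fell from 4.53 and 4.37 to 2.31 and 2.32 FPKM, 1.92-fold lower. Its partner Ehmt2, known as G9a and the most abundant lysine methyltransferase gene per length, was at 52.7 and 54.4 against 50.6 and 49.6 FPKM and did not pass (log2 -0.09, adjusted p = 0.054). The Ehmt2 to Ehmt1 ratio was 11.6 and 12.4 under the scrambled label and 21.9 and 21.4 under the knockdown label. The paired proteins are known to work as a heterodimer.

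Both H3K27 methyltransferases fell, as did 41.2% of all tested genes. Ezh2, the catalytic subunit of Polycomb repressive complex 2 in dividing cells, was at 14.2 and 14.0 FPKM under the scrambled label and 7.16 and 7.28 under the knockdown label. That is 1.95-fold lower (log2 -0.88, SE 0.018, adjusted p = 1.6e-04). Ezh1, the alternative catalytic subunit, went from 1.48 and 1.46 to 0.929 and 0.942 FPKM; its call was lost with the length trend removed (adjusted p = 0.98). Groups did not overlap for either gene, as for 74.5% of all tested genes.

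The genes grouped here as enzymes of H3K4, H3K36 and H3K79 were low and, where tested, fell, as did 41.2% of all tested genes. Setd1a, which writes H3K4 trimethylation at promoters, fell from 4.45 and 4.51 to 2.20 and 2.26 FPKM, 2.01-fold lower. Of the 7 genes grouped as H3K4 enzymes only Setd1a was above the filter, with Setd7 counted among the other SET-domain genes. Nsd3, an H3K36 dimethylase, fell from 2.40 and 2.42 to 0.919 and 0.941 FPKM, 2.59-fold lower (log2 -0.82, adjusted p = 1.6e-04). Nsd2, of the same family, fell from 6.27 and 6.32 to 3.71 and 3.82 FPKM. Dot1l, the H3K79 methyltransferase, was at 3.99 and 4.03 FPKM under the scrambled label and at 1.65 and 1.70 under the knockdown label, 2.39-fold lower. In each of these genes the replicates lay close together and the groups apart. Groups did not overlap in 74.5% of all tested genes.

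Of the 5 other SET-domain genes, 4 fell and 1 rose, beside 41.2% and 27.4% of all tested genes. Setd7, a monomethyltransferase of H3K4 and of several transcription factors, was at 11.1 and 10.9 FPKM under the scrambled label and 4.47 and 4.54 under the knockdown label, 2.45-fold lower (log2 -1.13, SE 0.019, adjusted p = 1.6e-04). Setd3, which methylates a histidine of actin rather than histones, fell from 31.9 and 31.7 to 23.2 and 23.6 FPKM. Setd6, known to methylate the NF-kappaB subunit RelA, had 10.2 FPKM in either scrambled library and fell to 7.07 and 7.24, and Setd5 fell 1.94-fold. Setd4 rose 1.36-fold, from 1.11 in both libraries to 1.49 and 1.53 FPKM, on 131 and 159 against 215 and 203 fragments. Its adjusted p was 8.9e-04, and 0.041 when standard errors were held to at least the counting error.

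Arginine methyltransferases supplied most of the group's signal. Of the 7, all tested, 3 fell and 2 rose, close to the 41.2% and 27.4% of all tested genes. These enzymes made up 76.0% to 82.0% of the members' summed FPKM, and Prmt1, the main asymmetric dimethylase, alone 55.8% to 60.5%. Prmt1 was at 727 and 661 FPKM under the scrambled label and 591 and 660 under the knockdown label. It did not pass (log2 -0.15, SE 0.087, adjusted p = 0.25; -0.30 in batch 1 and -0.00 in batch 2), and its nearest libraries across groups were almost equal. Prmt5, the main enzyme of symmetric dimethylation, fell from 95.4 and 92.5 to 57.9 and 58.3 FPKM, 1.62-fold (log2 -0.68, adjusted p = 2.3e-04). Prmt9, which methylates a splicing factor, fell from 4.84 and 4.79 to 2.86 and 2.91 FPKM, and Prmt6, which acts on H3 arginine, from 14.9 and 14.8 to 12.0 and 12.2. Prmt6 did not pass when libraries were centred on their medians (adjusted p = 0.099).

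Prmt2 and Prmt3 were the arginine enzymes that rose. Prmt2, a coactivator of nuclear receptors, was at 43.2 and 43.1 FPKM under the scrambled label and 54.1 and 55.4 under the knockdown label, 1.27-fold higher (log2 0.34, adjusted p = 7.5e-04). Prmt3, whose known substrate is a protein of the small ribosomal subunit, went from 18.8 and 18.2 to 20.4 and 21.4 FPKM (log2 0.17, adjusted p = 0.024). The call of Prmt3 did not hold in the fit blocked by batch (adjusted p = 0.097), nor without the library labelled scrambled 1 (0.081), scrambled 2 (0.13) or knockdown 2 (0.085). Prmt7, which makes only monomethyl arginine, was at 85.1 and 65.8 against 64.6 and 84.1 FPKM, so the groups overlapped (adjusted p = 0.99).

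Demethylase genes had 6 of 9 tested members lower and 0 higher by limma (0 also at an unadjusted p under 0.05), beside 41.2% and 27.4% of all tested genes. With the length trend removed 4 of the 9 were lower (Kdm1a, Kdm2a, Kdm2b and Kdm4a) and 2 higher (Kdm3a and Kdm4b), beside 36.6% and 29.5%. Kdm1a, known as LSD1, removes mono- and dimethyl marks from H3K4 and had the deepest fall of the 34 members above the filter. It was at 30.6 and 30.7 FPKM under the scrambled label and 11.2 and 11.5 under the knockdown label. The means were 30.7 ± 0.123 and 11.4 ± 0.198 FPKM (SD, 2 libraries a group), 2.70-fold lower (log2 -1.36, SE 0.020, adjusted p = 1.6e-04), on 3130 and 3823 against 1407 and 1323 fragments. Its relative Kdm1b did not pass, at 2.13 and 1.32 against 1.31 and 2.07 FPKM. Kdm2a, an H3K36 demethylase that binds unmethylated CpG islands, fell from 6.37 and 6.31 to 2.50 and 2.55 FPKM, 2.51-fold, and its relative Kdm2b fell 1.70-fold. Kdm4a, which acts on H3K9 and H3K36 trimethylation, fell from 12.0 and 11.9 to 5.79 and 5.91 FPKM, 2.05-fold, while Kdm4b was at 3.94 and 3.69 against 3.72 and 4.01 FPKM (log2 0.01, adjusted p = 0.94). The Kdm4a to Kdm4b ratio was 3.06 and 3.23 under the scrambled label and 1.56 and 1.47 under the knockdown label.

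The H3K9 demethylases Kdm3a and Kdm3b both passed, at log2 -0.19 and -0.44. Neither held once the length trend was removed: Kdm3b came to 0.00 (adjusted p = 0.86) and Kdm3a turned to 0.19 (adjusted p = 0.01). Kdm3a also did not pass after median-centring (log2 -0.01, adjusted p = 0.84), with batch as a block (0.085), or without the library labelled scrambled 1 (0.089), knockdown 1 (0.11) or knockdown 2 (0.061). Kdm8, a JmjC hydroxylase, was at 4.96 and 3.99 against 3.92 and 4.98 FPKM and did not pass.

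**Figure D2:**
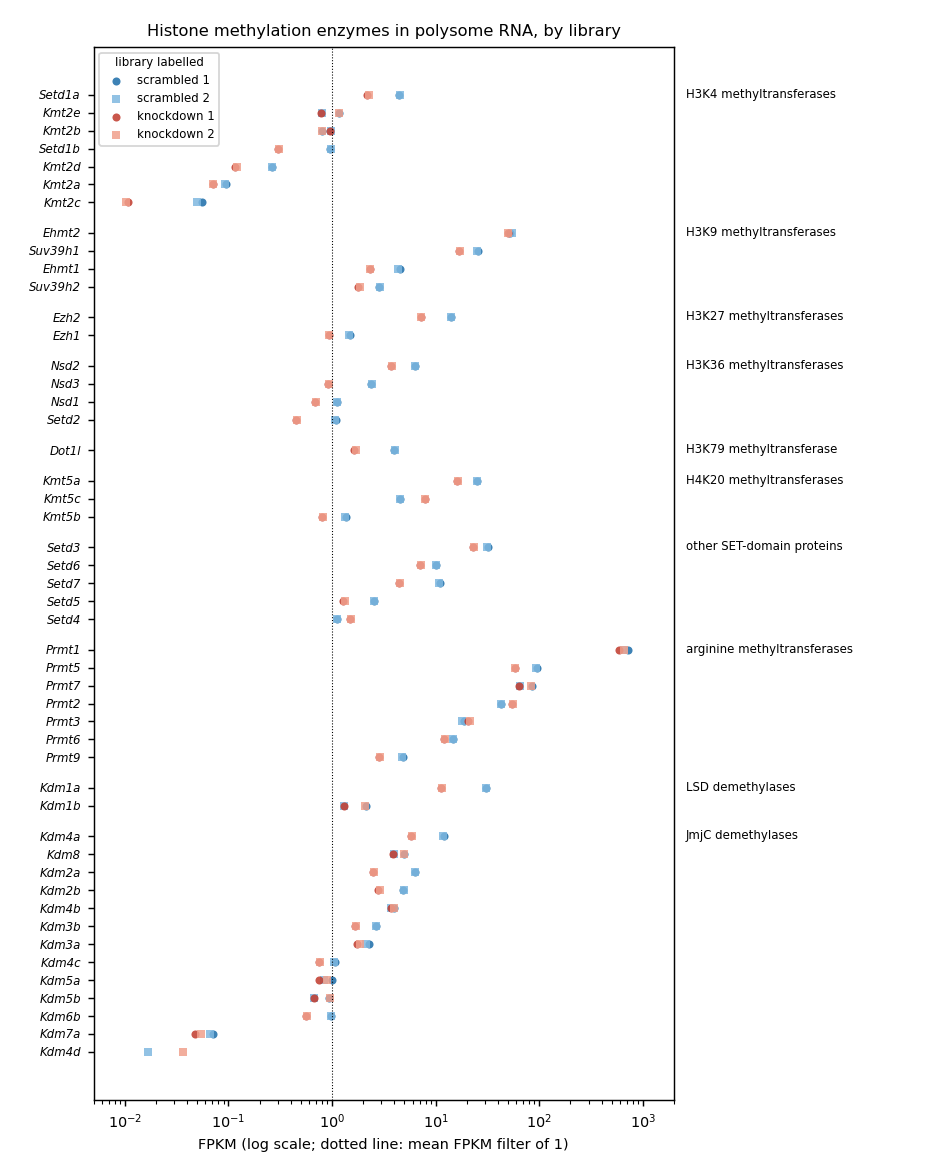
FPKM of the 48 members in each of the 4 libraries on a log axis, grouped by the mark or chemistry the enzymes are known for (circles are replicate 1, squares replicate 2, blue scrambled and red knockdown labels). Values of 0 (Kdm4d in both replicate 1 libraries) are not drawn; Prmt1, at 591 to 727 FPKM, is the highest, and 14 members have a mean under the dotted line at 1.

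Among the 6 tested members that did not pass, 4 had a pattern by library that was common in the series. In Prmt7, Kdm1b, Kdm4b and Kdm8 the library labelled scrambled 1 lay next to knockdown 2 and scrambled 2 next to knockdown 1, closer than the replicates lay to each other, as in 2100 of the 2741 genes of the series that did not pass (76.6%). In all 6 members the replicates of the groups differed in opposite directions by number, as in 2711 of the 2741 genes that did not pass (98.9%) and 72.8% of those that did. Of the 28 members that passed, 19 had this opposite order.

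**Figure D3:**
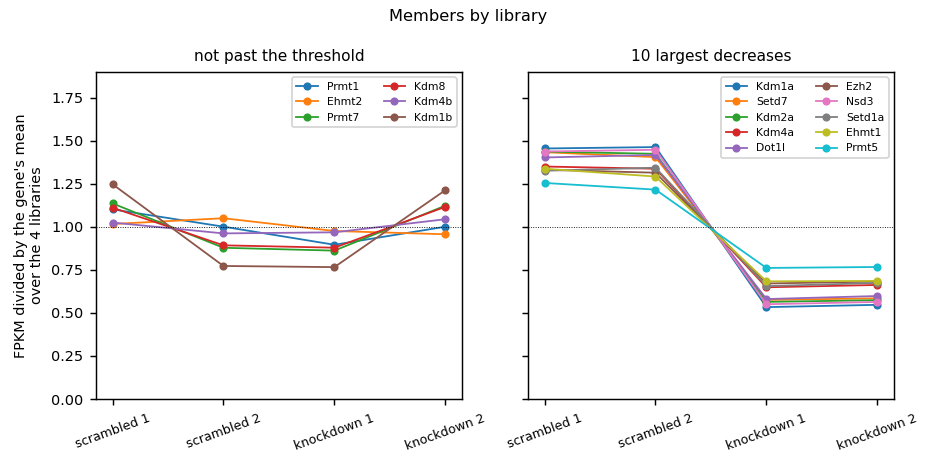
FPKM of each gene divided by its mean over the 4 libraries, for the 6 tested members that did not pass (left) and the 10 that fell most (right), 1 line per gene. On the left Prmt7, Kdm8, Kdm4b and Kdm1b are high in scrambled 1 and knockdown 2 and low in the other libraries; on the right both libraries labelled knockdown lie below both labelled scrambled.

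The 14 members below the filter include Kmt2c and Kmt2d, the longest genes of the group. The genes Kmt2a to Kmt2e, grouped here with the H3K4 enzymes, were all among them. Kmt2d, an enhancer H3K4 methyltransferase, had 0.261 and 0.264 FPKM under the scrambled label and 0.116 and 0.120 under the knockdown label, on 97, 119, 53 and 50 fragments. Its relative Kmt2c had 34 and 37 against 8 and 7 fragments, and Kmt2a 27 and 32 against 25 and 23. Setd1b had 0.955 and 0.968 against 0.301 and 0.307 FPKM, 3.16-fold lower, and the H3K36 trimethylase Setd2 had 1.09 and 1.06 against 0.454 and 0.461. Kdm6b, an H3K27 demethylase, had 0.983 and 0.984 against 0.564 and 0.577 FPKM, and Nsd1 1.11 in both libraries against 0.682 and 0.699.

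Kmt2b, Kmt2e, Kdm5a and Kdm5b overlapped between groups, at means of 0.806 to 0.991 FPKM under the scrambled label and 0.814 to 0.974 under the knockdown label. Kdm4c had 1.06 and 1.04 against 0.756 and 0.764 FPKM, and Kdm7a 22 and 25 against 18 and 19 fragments. Kdm4d, a gene known for expression in testis, had 0 and 1 against 0 and 2 fragments. With no filter, 32 of the 48 members fell and 4 rose, against 25.7% and 21.0% of all 18200 genes. Only 8750 of the 18200 had a mean FPKM of at least 1, so these shares are not like for like. The 32 include Kmt2a (log2 -0.03, limma adjusted p = 0.041), on the few fragments given above. Standard errors were not held to the counting error in this fit.

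Gene length moved with these results. The tested members had a median summed exon length of 5889 bases, from 1903 in Setd6 to 18347 in Setd5, against 4121 for all tested genes. Across genes, which are not independent replicates and share the same libraries, the log2 change had a Spearman rho with length of -0.39 in 8691 genes and of -0.46 in the 34 members. Of members of 8000 bases and more, 11 of 11 fell and 0 rose, against 67.7% and 9.86% of all genes of that length. From 6000 to under 8000 bases 4 of 5 fell and 0 rose, against 58.6% and 15.6%. From 4000 to under 6000 bases 7 of 13 fell and 3 rose, against 46.4% and 21.5%. From 2000 to under 4000 bases 1 of 4 fell and 1 rose, against 33.5% and 34.0%. Setd6, the 1 member under 2000 bases by these exon lengths, fell, where 12.9% of all genes fell and 47.6% rose. The gene lengths behind the deposited FPKM were not given. Fragments and FPKM of Setd6, Kdm8, Kdm4b and Ehmt2 fit longer genes than their summed exons. Those of Prmt3, Kdm4a and Prmt7, among others, fit shorter genes, unless the true fragments are a multiple of those given. The length classes of all these members, and the counts by class, are therefore uncertain.

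Kdm1a, with 5179 bases, fell by 1.14 on the log2 scale with the length trend removed, the deepest of the tested members there as well. Kmt5c rose by 0.78, a value that rests on a summed exon length its fragments and FPKM did not match. Nsd2, at 16803 bases, kept its call at -0.15 (adjusted p = 0.015), against -0.62 without the correction. Kmt5b came to 0.07 and did not pass. Ehmt2 and Kdm4b, not past without the correction, came to 0.15 (adjusted p = 0.032) and 0.21 (adjusted p = 0.037). Fragments and FPKM of both did not match their summed exon lengths, so these values are uncertain. Among the other falls, Setd5 went from -0.61 to -0.15, Kdm2b from -0.61 to -0.18 and Nsd3 from -0.82 to -0.36. Setd6 went the other way, from -0.46 to -0.64. Whether length is the cause of any fall was not tested.

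**Figure D4:**
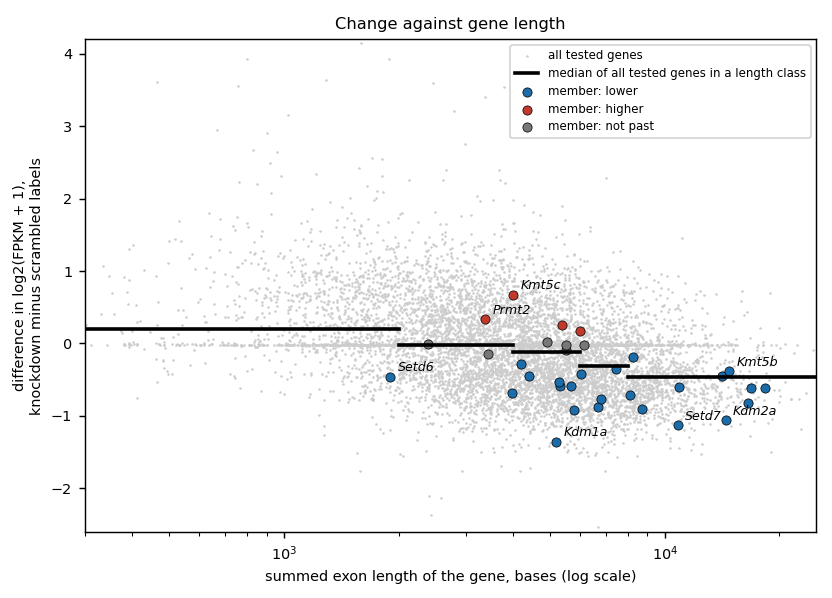
Difference in log2(FPKM + 1) against summed exon length on a log axis, for all tested genes (small grey points) and the 34 tested members (large points, blue fell, red rose, grey did not pass). Black bars are the median of all tested genes in each length class, falling from 0.20 under 2000 bases to -0.46 from 8000 bases, and the 11 members in the last class all lie below 0.

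Partners of these enzymes also fell more often than they rose, as did all tested genes (41.2% fell and 27.4% rose). The part of gene length in the partners' changes was not tested. The lists were drawn up with results of these data known. Of 8 tested Polycomb repressive complex 2 partners 6 fell and 2 did not pass (median log2 -0.43): the histone-binding Rbbp7 fell from 158 and 157 to 87.3 and 89.0 FPKM and Rbbp4 from 224 and 222 to 141 and 144, Aebp2 fell by 0.75 and Phf19 by 0.40 on the log2 scale. Of 14 partners of the SET1 and MLL complexes, 9 fell and 2 rose (median -0.63). The core subunit Ash2l fell from 55.4 and 54.9 to 27.5 and 28.1 FPKM, Wdr82 from 35.3 and 35.4 to 17.8 and 18.3, Hcfc1 from 5.59 and 5.44 to 2.11 and 2.14, and the coactivator Ncoa6 from 2.33 and 2.29 to 0.741 and 0.757. The 2 that rose, named after their values were seen, were the MLL3 and MLL4 subunit Pagr1a, 1.68-fold, and the CpG-binding Cxxc1, 1.17-fold.

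Of 4 partners of Prmt5, 3 fell and 1 rose. The counts here also stand beside the 41.2% of all tested genes that fell and the 27.4% that rose. Wdr77, the obligate partner of Prmt5, fell from 70.3 and 69.9 to 32.0 and 32.6 FPKM, Riok1 and Clns1a fell by 0.65 and 0.43 on the log2 scale, and Coprs, which directs Prmt5 to histones, rose 2.61-fold, from 10.8 and 10.5 to 28.2 and 27.3 FPKM. Of 7 LSD1 partners, 5 fell and 1 rose: Rcor1, known as CoREST, fell by 0.99 on the log2 scale, the deacetylase Hdac1 fell from 198 and 193 to 120 and 121, Phf21a by 0.38 on the log2 scale, and Hmg20b rose 1.45-fold. Of 5 Dot1l-linked genes 4 fell, with the elongation factors Aff4 and Aff1 both at log2 -0.86, Mllt10 at -0.36 and Mllt1 at -0.18. Of 5 partners of the H3K9 enzymes 4 fell, among them Wiz at -0.66, Mphosph8 at -0.56, Trim28 at -0.47 and Cdyl at -0.10.

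Enzymes and readers outside the group were counted in the same way. Other histone methyltransferases had 4 of 7 lower and 3 not past, with Setdb1 at log2 -0.78, Carm1 at -0.89, Smyd4 at -0.66 and Prdm2 at -0.53. Other JmjC genes had 4 of 4 lower, with Phf2 at -1.13, Riox2 at -0.55, Jmjd6 at -0.39 and Riox1 at -0.30. The H3K9 readers Cbx5 and Cbx1 fell by 1.04 and 0.54, and Cbx3 did not pass. Polycomb repressive complex 1 had 5 of 15 lower, 2 higher and 8 not past (median -0.05), with Pcgf6 at -0.87, Phc1 at -0.72, Pcgf3 at -0.51 and Cbx6 at -0.37 among the falls. Of 6 tested genes of the S-adenosylmethionine cycle 5 fell and 1 did not pass: Ahcyl1 by 1.09, Ahcyl2 by 0.78, Mtrr by 0.70 and the methyl donor synthetase gene Mat2a by 0.63 on the log2 scale. All of these shares are to be read beside the 41.2% of tested genes that fell and the 27.4% that rose.

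Markers of other cell types moved in places with the same contrast. The 8 epithelial markers summed to 168 and 163 FPKM under the scrambled label and 99.8 and 101 under the knockdown label, nearly all Krt19. Of 4 tested, 3 were higher and Krt19 lower, beside 27.4% and 41.2% of all tested genes. Krt8 rose 9.14-fold, Krt18 6.15-fold and Krt7 3.25-fold, to no more than 3.03 FPKM. Epcam and Cdh1 were near 0. The 3 leukocyte markers with an entry summed to 8.77 to 8.98 FPKM in all libraries, with Cd14 higher (1.15-fold) and Coro1a lower (0.792 of its level), and the endothelial list to 1.69 and 1.63 against 4.70 and 4.47, almost all Egfl7. Adipocyte markers summed to 8.38 and 8.36 against 7.65 and 7.72 FPKM, a sum in which Pparg and Fabp4 fell to 0.317 and 0.572 of their levels and Cebpa rose by 0.72 on the log2 scale, and skeletal muscle markers to 1.64 to 2.19. Of 7 tested proliferation genes 3 fell, 1 rose and 3 did not pass, where 41.2% of all tested genes fell and 27.4% rose. The listed proliferation genes summed to 1441 and 1350 against 1426 and 1538 FPKM. The mostly nuclear noncoding RNAs summed to 1.99 and 2.07 against 1.09 and 1.06 FPKM. Their part in the results was not tested.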

How the data were processed

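The authors deposited FPKM values per gene and library, computed before deposit; for the aligner, counting tool, annotation, strand and reads shared between related genes: not given in the sources used here. Builds GRCm38, mm10 and GRCm39 are named in the submitters' processing notes without a role. Per the labels' protocols, messenger RNA was captured on beads. All 4 value columns were used (0 left out).

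Testing was limited to genes whose mean over the 4 libraries reached 1 FPKM, on log2(FPKM + 1), pseudocount 1. The test was limma 3.58.1 under R 4.3.3 (moderated, with a mean-variance trend, two-sided), 2 libraries a group, adjusted by Benjamini-Hochberg over 8750 genes at a threshold of 0.05. The limma fit, with and without the counting-error floor, and the recovery of fragments were tested on simulated data with counting error only. Those data lacked the opposed replicate differences seen here, so they cannot show how the fits behave on these libraries. Members and lists were chosen with earlier results of these data known.

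Whole fragments were recovered for 8684 tested genes (99.2%) and all 48 members from the steps in the FPKM values (relative tolerance 3e-08, numbers up to 60000). They are the smallest that fit, so true numbers can be a multiple, and they cover counting error only. Exon lengths came from GENCODE M21, joined by Entrez ID and then by symbol, for 8691 tested genes. Lengths implied by fragments and FPKM had a median ratio of 1.08 to these. Single genes, among them Setd6, Kdm8, Kmt5c, Kdm4b, Ehmt2, Prmt3, Kdm4a and Prmt7, differed more, which limits their length classes and length-corrected values.

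The labels give replicate and batch the same number, so batch pairs the replicates by the labels. Across tested genes the differences between replicates 2 and 1 in the groups had a Pearson's r of -0.83. The cause of this was not tested. Members were named as stated by rule: full values for the largest changes and for those with a mean of 10 FPKM or more; of each partner list, the 4 tested genes with the smallest p. Alternatives were other scalings, the pseudocount, the filter, the batch block, a counting-error floor and leaving out each library. Python 3.11.15, numpy 2.4.6, pandas 2.3.3, scipy 1.17.1 and matplotlib 3.10.9 made the tables and figures.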

Additional observations from a re-analysis of the deposited data

How the results depend on the processing

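Of the 34 tested members, 22 kept direction and call under every alternative run, and 28 of 28 calls stood with standard errors held to the counting error. The exceptions were Ehmt2, Ezh1, Kdm1b, Kdm3a, Kdm3b, Kdm4b, Kdm8, Kmt5b, Prmt1, Prmt3, Prmt6 and Prmt7; the cause was not tested. The members' median of -0.46 came to -0.29 after median-centring, -0.37 after quantile normalization, -0.15 with the length trend removed, -0.62 with a pseudocount of 0.1 and -0.34 with no filter, over more genes. Median-centring moved the median of all tested genes from -0.02 to 0.15. With the length trend removed 7 members were higher, and with no filter 3819 genes of the series. Signs turned after median-centring for Ehmt2 (0.08), Kdm1b (0.16), Kdm8 (0.17), Prmt1 (0.02) and Prmt7 (0.15), after quantile normalization for Kdm1b (0.06) and Kdm8 (0.12), and with the length trend removed for Ehmt2 (0.15), Kdm1b (0.23), Kdm3a (0.19), Kdm3b (0.00), Kmt5b (0.07) and Prmt7 (0.26). Leaving out 1 library gave 23 to 24 members lower and 3 to 4 higher, medians of -0.47 to -0.44, and turned signs in Kdm1b (-0.23 to 0.20), Kdm8 (-0.15 to 0.13), Prmt7 (-0.21 to 0.17) and Kdm4b (-0.03 to 0.06). Paired by batch as a block, 23 members were lower and 3 higher, the calls of Kdm3a and Prmt3 being lost and no other. With the crossed pairing as a block, chosen after seeing the data, 26 were lower and 4 higher, and 4282 and 2962 of all genes. With 2 libraries a group, precision rests on few degrees of freedom, and fragment numbers under about 100 limit Kmt2a, Kmt2c, Kmt2d, Kdm4d and Kdm7a.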

Other observations

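The changes of genes that did not pass were not spread evenly around 0. Of 8750 tested genes, 1197 had a log2 change from -0.03 to under -0.01, against 117 from -0.05 to under -0.03 and 175 from -0.01 to under 0.01. Kdm1b and Prmt7 are the members in that band. In 2100 of the 2741 genes that did not pass (76.6%), the FPKM of scrambled 1 and knockdown 2, and of scrambled 2 and knockdown 1, lay closer together than both pairs of replicates. Over all 2741 genes that did not pass, the ratio of knockdown 2 to scrambled 1 had a median of 0.990 (percentiles 10 and 90 at 0.905 and 1.10) and that of knockdown 1 to scrambled 2 a median of 0.979 (0.891 and 1.10). In the same genes scrambled 1 over scrambled 2 ran from 0.629 to 1.31 between those percentiles, and knockdown 1 over knockdown 2 from 0.755 to 1.59. These genes are those whose groups were not told apart, a choice that favours close values across groups. The recovered fragments of scrambled 2 and knockdown 1 were the same whole number in Kdm1b (243), Kdm5b (216) and Kmt2e (149). Such equality was found in 49 of 8684 tested genes for that pair, in 7 for the replicates labelled scrambled, in 7 for those labelled knockdown and in 9 for scrambled 1 and knockdown 2. The labels were used as given.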
